A study of Rattus norvegicus with 10 samples.

Results

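Livers of fasted male Wistar rats fed a fish oil diet were set against livers of rats fed standard chow, on all probe sets of a rat genome array other than the array's own controls. The 4 arrays of this comparison, 2 with fish oil and 2 with chow, are part of a set of 10, in which 6 more arrays cover diets based on lard, olive oil or coconut fat. Wistar rats are an outbred laboratory strain. The fish oil diet gave 42% of its energy as fat, in the form of cod liver oil by the design text, and was eaten for 12 weeks, as was the chow. No fat share was given for chow, so the kind of fat, its amount and the rest of the diet's composition cannot be told apart in this comparison. The lard, olive oil and coconut fat diets had the same 42% of energy as fat. All rats were fasted overnight and a piece of liver was frozen. Whether RNA of several rats was pooled is not in the labels. The p-values therefore cover only the spread between these samples, which may be technical.

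Marine oils are rich in long-chain omega-3 fatty acids, and cod liver oil also carries vitamins A and D. In the liver such fatty acids are known ligands of PPAR-alpha, a nuclear receptor that raises genes of fatty acid oxidation in mitochondria and peroxisomes, and they are known to restrain SREBP-1, a factor that drives fatty acid synthesis. During an overnight fast PPAR-alpha and the hormone glucagon also act on the liver of a chow-fed rat, and glucagon raises enzymes that break down amino acids for glucose and urea production.

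Signals are MAS5 intensities, the brightness that the array software computes for each probe set, on a scale where every array had a trimmed mean of about 100. Fold changes are differences of log2(signal + 3.1), fish oil minus chow, with a standard error (SE). They understate the change of dim genes. A gene was taken as not above background in a diet when neither of its arrays exceeded 12.8, the top signal of a bacterial control sequence. Its fold was then given as a bound against 12.8. "Rose" and "fell" are kept for probe sets with a limma adjusted p under 0.05 over all 18625 probe sets tested. Array medians lay at 30.3 and 28.7 with fish oil, against 29.1 and 29.1 with chow, and between 29 and 36.8 on the other diets. The 2 fish oil arrays correlated across probe sets at 0.943, the 2 chow arrays at 0.949. Pairs of a fish oil and a chow array correlated almost as highly, between 0.935 and 0.942. The 11 hepatocyte markers tested had a median log2 fold change of 0.00, and albumin (Alb) had signals of 10245 and 11900 with fish oil, against 10257 and 9794.2 with chow.

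Of the 18625 probe sets, 13 rose with fish oil, which is 0.0698%, and 16 fell, which is 0.0859%. On all 29 the fish oil and chow arrays did not overlap. With 2 arrays per diet this was common: over all 18625 probe sets fish oil lay wholly above chow in 3268 and wholly below in 3544. Many genes named below without passing were picked among those without overlap, so in them it is no separate result. A single gene symbol was available for 20 of them, 8 higher and 12 lower. Of the 9 others, 5 higher and 4 lower, 6 had no symbol and 3 had several, and these are not named here. Over all probe sets the median log2 fold change was -0.01. The count of 29 rested on single arrays: it was 14 or 10 without fish oil array 1 or 2, 41 or 5 without chow array 1 or 2, and 11 without either lard array. Without chow array 2 the calls were 4 higher and 1 lower, and without chow array 1 they were 24 and 17. Among the 20 named genes, Apoa4, Aldh1a1, Acot1 and Hdc passed with each of the 10 arrays left out in turn. The other 16 lost their call at least once, Ehhadh only without chow array 2.

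**Figure D1:**
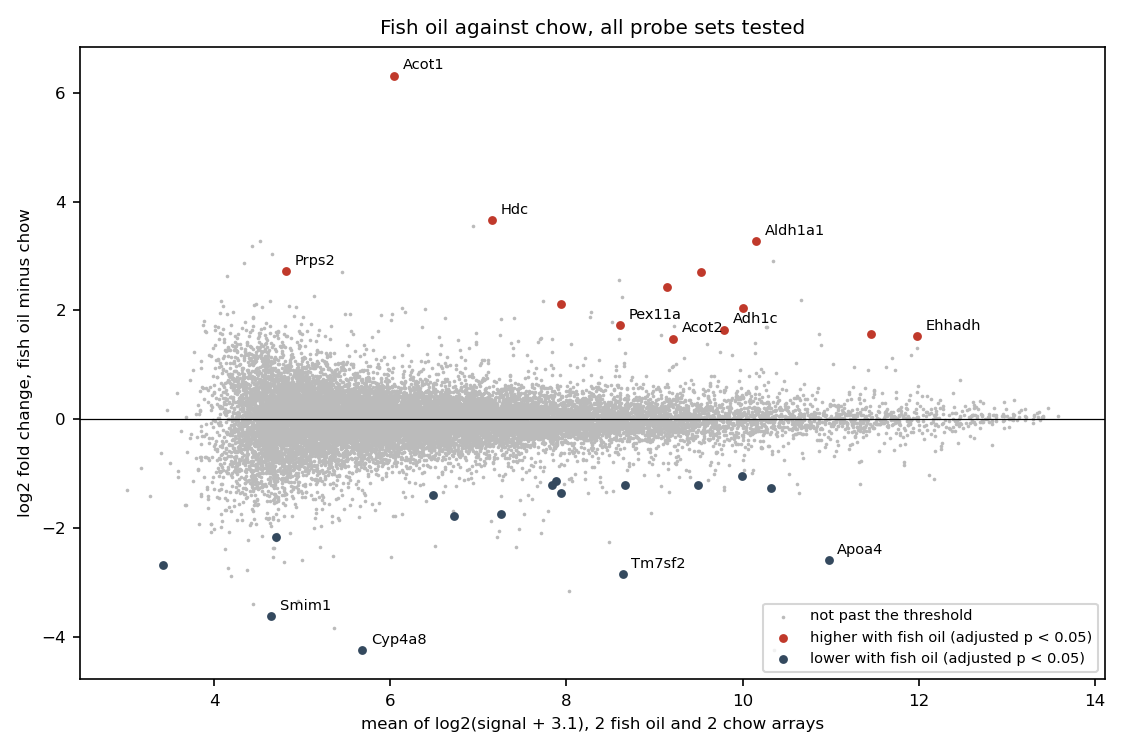
Log2 fold change (fish oil minus chow, y axis) against the mean of log2(signal + 3.1) over the 2 fish oil and 2 chow arrays (x axis) for all 18625 probe sets tested. Red points are the 13 that rose, dark points the 16 that fell and grey points the rest, with names for the largest changes among single-symbol genes. Acot1 lies highest and Cyp4a8 lowest among the named genes.

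Among the named genes, the 4 with the smallest p were 3 enzymes and a lipid carrier. Acot1, a cytosolic thioesterase that releases fatty acids from coenzyme A, had signals of 989.8 and 344.3 with fish oil, against 8.8 and 1.5 with chow. Both chow values were below the background bound, so Acot1 was at least 45.6-fold higher with fish oil (limma adjusted p = 0.00136). Aldh1a1, which oxidises retinaldehyde to retinoic acid, stood at 3681.1 and 3417.8 with fish oil, against 290.5 and 454.9 with chow (log2 fold change 3.28, SE 0.28, limma adjusted p = 0.00136). Fish oil arrays were far above chow arrays in both genes, and the spread between arrays of a diet was small beside the gap. Hdc, which turns histidine into histamine, had 525.5 and 487.3 with fish oil, against 41.4 and 33.2 with chow (log2 fold change 3.66, SE 0.35, limma adjusted p = 0.00254). Apoa4, an apolipoprotein of triglyceride-rich particles, had 970.5 and 699.1 with fish oil, against 4772.8 and 5122.0 with chow (log2 fold change -2.58, SE 0.20, limma adjusted p = 0.000925). Apoa4 was the brightest on chow of the named genes that fell, and none of the other apolipoprotein and lipoprotein genes tested passed. That list of 19 had a median of 0.03 (-0.01 without fish oil array 2). Apon, for apolipoprotein N, read 3004.4 and 3550.6 with fish oil, against 2653.0 and 1821.5 with chow, and did not pass (limma adjusted p = 0.574).

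**Figure D2:**
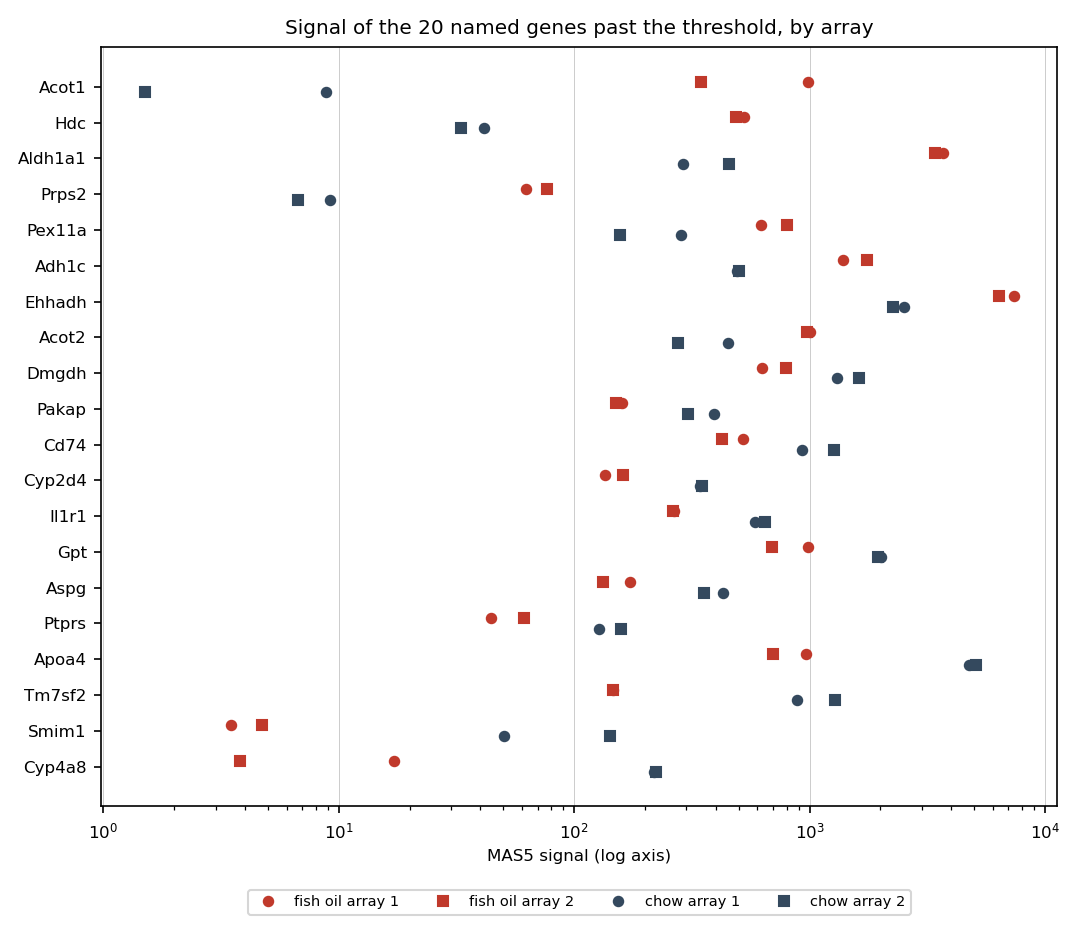
MAS5 signal (log axis) of the 20 genes with a single symbol that passed the threshold, one row per gene, in order of fold change. Red marks are the fish oil arrays and dark marks the chow arrays, circles array 1 and squares array 2; the 2 diets do not overlap in any row, and the 12 genes from Dmgdh down were lower with fish oil.

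Genes of peroxisomes and fatty acyl-CoA handling included several that rose. Ehhadh, which carries out 2 steps of beta-oxidation in peroxisomes, read 7370.0 and 6385.6 with fish oil, against 2511.7 and 2259.0 with chow (log2 fold change 1.52, limma adjusted p = 0.00364). Pex11a, which acts in peroxisome division, had 621.5 and 803.3 with fish oil, against 283.5 and 156.9 with chow (log2 fold change 1.73, limma adjusted p = 0.032). Another Pex11a probe set, at 1.85, did not pass (limma adjusted p = 0.103). Ehhadh and Pex11a were the 2 of 29 peroxisomal genes that rose. The list had 20 members above 0, a median of 0.13 (0.07 to 0.23 with 1 of the 4 arrays left out), and 7 higher and 0 lower at an unadjusted limma p under 0.05. For comparison, 3.54% of all probe sets were higher at that unadjusted threshold and 4.09% lower. Crot, the peroxisomal carnitine octanoyltransferase, had 3248.8 and 4347.9 with fish oil, against 2654.5 and 1500.4 with chow (limma adjusted p = 0.28).

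The acyl-CoA thioesterases, which cleave coenzyme A from fatty acids in cytosol, mitochondria or peroxisomes, were measured for 10 genes. On the brightest probe set of each, 9 lay above 0 and the median was 0.61 (0.36 without fish oil array 1), with 5 higher and 0 lower at an unadjusted limma p under 0.05. Beside Acot1, mitochondrial Acot2 rose on 1 of its 3 probe sets, with 1007.7 and 971.2 on fish oil, against 451.8 and 274.9 on chow (log2 fold change 1.48, limma adjusted p = 0.032). Its other 2 probe sets, at 1.47 and 1.23, did not pass (limma adjusted p = 0.051 and 0.052). Acot4, a peroxisomal member, gave 794.3 and 869.5 with fish oil, against 578.2 and 303.5 with chow. Acot8, also peroxisomal, gave 199.9 and 231.1 with fish oil, against 101.3 and 145.4 with chow. Neither passed (limma adjusted p = 0.27 and 0.54). Acot3 had 274.1 and 123.9 with fish oil, against 117.1 and 66.1 with chow, a narrow gap with a wide spread. The arrays of the 2 diets overlapped for the remaining 5, Acot7, Acot9, Acot12, Acot13 and Them4, with log2 fold changes between -0.35 and 0.41.

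Mitochondrial beta-oxidation showed small differences in a single direction. All 21 genes had fold changes above 0, with a median of 0.42 (0.30 to 0.46 with 1 of the 4 arrays left out), and 11 were higher and 0 lower at an unadjusted limma p under 0.05, but 0 passed the adjusted threshold. Eci1, an isomerase needed for unsaturated fatty acids, had 5280.1 and 4579.8 with fish oil, against 3302.6 and 1541.8 with chow (log2 fold change 1.12, limma adjusted p = 0.281). Decr1, a reductase that also serves unsaturated fatty acids, had 4905.3 and 4406.1 with fish oil, against 3236.8 and 1896.3 with chow (0.91, limma adjusted p = 0.216). The 2 chow arrays differed more than the 2 fish oil arrays in both genes, and both passed without chow array 1, with log2 fold changes of 1.67 for Eci1 and 1.29 for Decr1. Cpt1a, the entry step of fatty acids into mitochondria, had 3909.4 and 1970.1 with fish oil, against 2005.9 and 2019.1 with chow. Its fold change was -0.03 without fish oil array 1, so the higher value rested on that array. The respiratory chain was centred near 0: 40 genes of oxidative phosphorylation had a median of 0.03 (-0.11 without chow array 1, 0.16 without chow array 2), with 1 higher and 0 lower at an unadjusted limma p under 0.05.

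Ketone body enzymes and transporters had 7 of 7 members above 0 and a median of 0.48 (0.29 without chow array 1), with 0 past the adjusted threshold. Acat1, which joins 2 acetyl-CoA for ketone synthesis and also acts in isoleucine breakdown, read 3112.3 and 2859.5 with fish oil, against 1479.1 and 1455.2 with chow. It lay just outside the threshold (log2 fold change 1.02, limma adjusted p = 0.0506). Bdh1, which interconverts the 2 main ketone bodies, read 2117.4 and 1513.1 with fish oil, against 1047.8 and 939.1 with chow (limma adjusted p = 0.24).

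Among 28 genes of the PPAR-alpha and fasting response, 21 lay above 0 (median 0.25, and 0.08 without fish oil array 1), with 7 higher and 0 lower at an unadjusted limma p under 0.05 and 0 past the adjusted threshold. Vnn1, a pantetheinase, had 1034.1 and 715.0 with fish oil, against 249.0 and 126.8 with chow (log2 fold change 2.25, limma adjusted p = 0.139). Angptl4, a secreted inhibitor of lipoprotein lipase, had 2106.8 and 1404.7 with fish oil, against 1056.3 and 515.5 with chow (1.22, limma adjusted p = 0.201). The diets did not overlap in these 2 genes. They did in Fgf21, a fasting hormone of the liver, with 373.3 and 32.3 on fish oil, against 16.3 and 45.3 on chow. Ppara itself also overlapped, at 104.1 and 32.3 with fish oil, against 41.6 and 3.2 with chow, where 3.2 was below the background bound.

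Fatty acid omega-oxidation, which starts with hydroxylation by Cyp4a enzymes, gave both directions within 1 gene family. Cyp4a8 fell, with 17.1 and 3.8 on fish oil, against 218.5 and 222.9 on chow (log2 fold change -4.24, SE 0.54, limma adjusted p = 0.019). The fish oil value of 3.8 was below the background bound. Without fish oil array 2 the fold change was -3.47 and the call was lost, as it was without chow array 2. A second Cyp4a8 probe set, at -2.52, did not pass. Cyp4a1 was higher on both fish oil arrays, at 5813.2 and 5820.1, against 3257.5 and 2023.5 with chow, without passing (1.18, limma adjusted p = 0.251). Cyp4a3 gave 4479.4 and 5939.9 with fish oil, against 3983.8 and 3940.1 with chow (0.38). These genes are close relatives, and signals of one may include transcripts of another.

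Uptake of fatty acids was also measured. Cd36, a fatty acid transporter and scavenger receptor, had 912.5 and 952.6 with fish oil, against 119.7 and 204.8 with chow, just outside the threshold (log2 fold change 2.55, limma adjusted p = 0.054). Acsm5, a medium-chain acyl-CoA synthetase, had 558.3 and 669.8 with fish oil, against 189.8 and 122.9 with chow (limma adjusted p = 0.351). Slc27a4, a fatty acid transport protein, ran the other way, with 5.7 and 13.4 on fish oil, against 48.1 and 59.0 on chow (-2.23, limma adjusted p = 0.227). Of the 20 genes in that list, 14 lay above 0 (median 0.21, and 0.38 without fish oil array 1). Plin3, a coat protein of lipid droplets, had 131.4 and 71.8 with fish oil, against 262.9 and 419.0 with chow (-1.74, limma adjusted p = 0.0583).

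In cholesterol synthesis 17 of 18 genes lay below 0, with a median of -0.75, and 7 were lower and 0 higher at an unadjusted limma p under 0.05. Tm7sf2, a sterol reductase, was the 1 that fell, with 145.6 and 145.7 on fish oil, against 886.4 and 1285.3 on chow (log2 fold change -2.85, SE 0.42, limma adjusted p = 0.032). Idi1, an isomerase of the isoprenoid steps, had 69.3 and 172.0 with fish oil, against 237.6 and 679.4 with chow (-1.85, limma adjusted p = 0.263). Msmo1, a sterol methyl oxidase, had 102.5 and 142.5 with fish oil, against 208.0 and 749.5 with chow (-1.68, limma adjusted p = 0.415). Cyp51, the sterol demethylase, had 264.2 and 482.9 with fish oil, against 647.7 and 1271.7 with chow (-1.34, limma adjusted p = 0.371). Chow array 2 was the highest of the 4 in all of these, and without it the list's median was -0.28.

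De novo lipogenesis had 10 genes above and 9 below 0 and a median of 0.03 (-0.45 without chow array 1, 0.65 without chow array 2), with 2 higher and 0 lower at an unadjusted limma p under 0.05. Fasn, the fatty acid synthase, had 59.6 and 753.4 with fish oil, against 105.8 and 1096.8 with chow. Srebf1, which encodes SREBP-1, had 464.8 and 1436.2 with fish oil, against 206.3 and 847.6 with chow. Scd, a desaturase, had 1924.3 and 6125.5 with fish oil, against 547.5 and 5610.4 with chow. Array 1 was the low array of both diets in these 3 genes, the diets overlapped in each, and the sign of the fold change turned when a single array was left out. Array 1 was also the low array of both diets in Idi1, Msmo1 and Cyp51 above and in Me1 and Fads2 below. What sets arrays 1 and 2 apart was not tested. Me1, malic enzyme, which supplies NADPH, was higher on both fish oil arrays, at 478.9 and 961.1, against 120.0 and 316.7 with chow, and did not pass (1.78, limma adjusted p = 0.336). Fads2, a desaturase of polyunsaturated fatty acids, had 1532.0 and 1725.6 with fish oil, against 593.2 and 1229.9 with chow (0.93, limma adjusted p = 0.473).

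**Figure D3:**
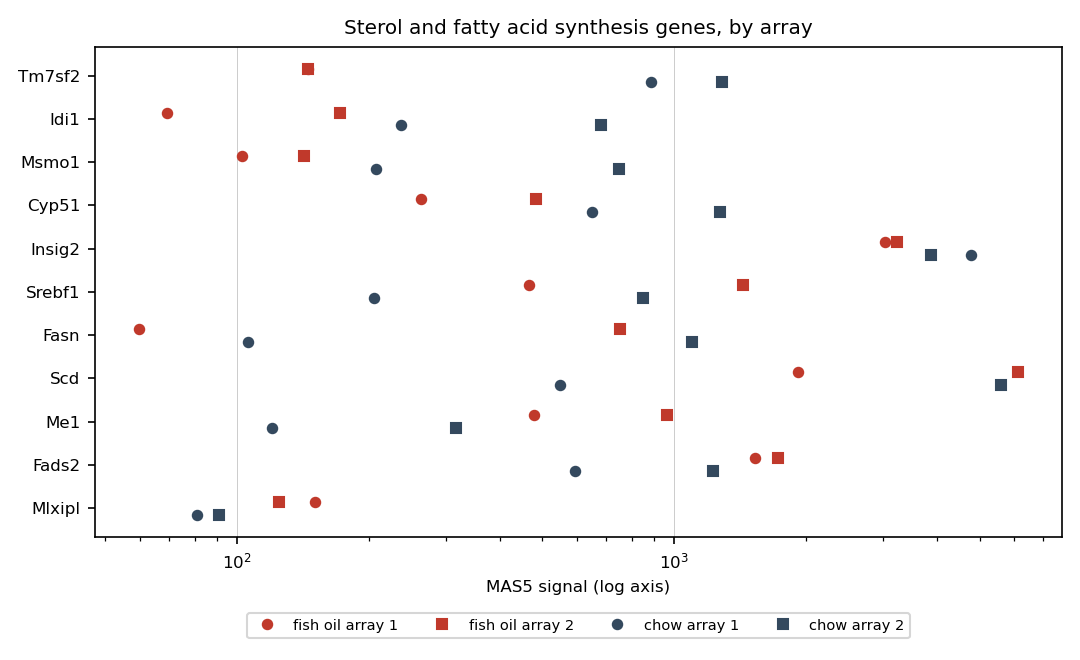
MAS5 signal (log axis) of 5 sterol genes (Tm7sf2 to Insig2) and 6 genes of fatty acid synthesis and desaturation (Srebf1 to Mlxipl), one row per gene, fish oil arrays in red and chow arrays in dark, circles array 1 and squares array 2. The sterol genes separate by diet, and Idi1, Msmo1 and Cyp51 are also higher on array 2 within each diet. Srebf1, Fasn and Scd overlap between diets and are likewise higher on array 2 within each diet.

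In bile acid synthesis and transport 20 genes had a median of -0.05 (0.09 without chow array 1, -0.23 without chow array 2) and 0 passed. Cyp7a1, the rate-limiting enzyme of bile acid synthesis, had 173.8 and 286.3 with fish oil, against 267.9 and 184.1 with chow. Abcb11, the export pump for bile salts, read 1367.5 and 1269.3 with fish oil, against 2219.9 and 1869.0 with chow (-0.63, limma adjusted p = 0.262). The 2 diets overlapped for Cyp7a1 and not for Abcb11.

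Retinoid genes, which handle vitamin A, had 24 of 32 members above 0 and a median of 0.30 (0.11 without chow array 2), with 8 higher and 1 lower at an unadjusted limma p under 0.05. On brightest probe sets Aldh1a1 was the 1 that rose. Adh1c, an alcohol dehydrogenase that also oxidises retinol, rose on 1 probe set, with 1390.7 and 1760.7 on fish oil, against 493.2 and 502.5 on chow (1.65, limma adjusted p = 0.032), and its brighter probe set did not pass (0.36, limma adjusted p = 0.494). Dhrs4, a retinal reductase, had 1708.3 and 1381.1 with fish oil, against 868.8 and 822.8 with chow (0.86, limma adjusted p = 0.057). Bco1, which splits carotenoids to retinal, had 187.7 and 195.7 with fish oil, against 74.2 and 104.6 with chow (1.09, limma adjusted p = 0.18). Lrat, which esterifies retinol for storage, had lower values with fish oil, 68.4 and 92.2, against 143.4 and 113.0 with chow (-0.66, limma adjusted p = 0.585). Beside Hdc, 3 more histidine genes were tested. Hal, which starts histidine breakdown, had 708.6 and 854.6 with fish oil, against 1768.8 and 1364.5 with chow (-0.99, limma adjusted p = 0.244), while Uroc1 and Ftcd, which act after it, had log2 fold changes of -0.21 and 0.07 and overlapped.

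Of 19 glutathione S-transferases 16 lay above 0, with a median of 0.19 (0.01 without fish oil array 2). Gsta3 had 243.5 and 717.3 with fish oil, against 15 and 68.1 with chow (log2 fold change 3.55, SE 0.84, limma adjusted p = 0.202). Gstp1 had 585.2 and 476.0 with fish oil, against 232.3 and 304.4 with chow (0.98, limma adjusted p = 0.214). The spread within diets was wide for Gsta3 and narrow for Gstp1. The Nrf2 and antioxidant list had 19 of 24 genes above 0 and a median of 0.19 (0.06 without fish oil array 2), with 5 higher and 2 lower at an unadjusted limma p under 0.05. Nqo1, a quinone reductase and a known target of the stress-response factor Nrf2, had 739.7 and 1566.9 with fish oil, against 256.1 and 417.7 with chow (1.71, limma adjusted p = 0.221). Akr7a3, an aflatoxin aldehyde reductase, had 815.8 and 2448.8 with fish oil, against 738.3 and 523.7 with chow (1.18, limma adjusted p = 0.543). Hmox1, a heme oxygenase and also a known Nrf2 target, is named here after its values were seen. It was one of the 2 lower, with 94.0 and 158.3 on fish oil, against 188.9 and 192.9 on chow (-0.63, limma adjusted p = 0.601). Mt2A, a metallothionein that binds zinc, had 2700.3 and 4412.2 with fish oil, against 804.6 and 711.9 with chow, just outside the threshold (2.18, limma adjusted p = 0.057). Glucuronidation and sulfation had 9 genes above and 8 below 0 and a median of 0.06 (-0.02 without chow array 2), with 2 higher and 2 lower at an unadjusted limma p under 0.05. Ugt2b1, a glucuronosyltransferase, had 1529.3 and 3222.8 with fish oil, against 549.7 and 843.5 with chow (1.70, limma adjusted p = 0.371). Ugt2b, another family member named after its values were seen, had 13.1 and 5644.6 with fish oil, against 6093.0 and 5308.7 with chow (-4.23, limma adjusted p = 0.626). Its 2 fish oil arrays were far apart and overlapped the chow arrays, and without fish oil array 1 the fold change was -0.01. Fish oil array 2 was the higher of the pair in Gsta3, Nqo1, Akr7a3, Mt2A and Ugt2b1. Chow array 2 was also the higher of its pair in Gsta3, Nqo1 and Ugt2b1, and the lower in Akr7a3 and Mt2A.

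Nrf2 is known to act through the antioxidant response element, searched here as TGAC, 3 bases of any kind and GCA, on both strands. Promoters were the RefSeq windows of 250 bases before to 50 after a gene's start on the rat build GRCr8, using the first listed start of a gene. The search was made with the expression values known. It covered 9 patterns in all, in the promoters of the genes past the threshold and of 10 gene lists. The element was in 3.0% of all 33469 promoters and in 4 of 16 glutathione S-transferase promoters, those of Gsta1, Gsta3, Gstp1 and Gstz1. It was also in 3 of 18 promoters of the genes past the threshold (Acot2, Aspg and Ptprs), in 3 of 19 of the interferon list and in 1 of 21 of the Nrf2 and antioxidant list. The stretches with the match, 30 bases on each side, are shown because Gsta3 and Gstp1 had the widest gaps of their family; capitals mark the match. They lie at chr9:31154942-31155011 on the plus strand for Gsta3 and at chr1:210769727-210769796 on the minus strand for Gstp1.
Gsta3: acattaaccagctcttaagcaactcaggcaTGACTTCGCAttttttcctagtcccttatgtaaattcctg
Gstp1: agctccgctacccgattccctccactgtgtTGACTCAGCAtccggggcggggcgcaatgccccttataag

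A shorter form of this element, TGACNNNGC, which every match of the longer one also holds, was in 12.1% of all promoters and 6 of 16 glutathione S-transferase promoters. The element bound by PPAR-alpha, a direct repeat, was searched in 3 forms. These were AGGNCA, any base and AGGNCA (0.415% of all promoters), AGGTCA, any base and AGGTCA (0.0538%), and AGGNCA, an A and AGGTCA (0.0179%), of which the last 2 are special cases of the first. It was in 0 of the 18 promoters available for the genes past the threshold and in 0 promoters of the 10 lists, so these letters were not in these windows. The sterol response element, as TCACNCCAC, was in 1.12% of all promoters and 0 of 15 of cholesterol synthesis, and its narrower form TCACCCCAC was in 0.484% and 0 of 15. The wider form was in the Ehhadh promoter, and both were in that of Acot13. The interferon-stimulated element, as TTTC, 2 bases of any kind and TTTC, was in 3.92% of all promoters and 11 of 19 of the interferon list. The last of the 9 patterns, the CCAAT form CTGATTGG, was in 3.5%, and is shown with the MHC class II genes. A match is a run of letters and not a measured binding site, and no enrichment was tested.

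Genes of antigen presentation by MHC class II lay lower with fish oil. All 9 genes had fold changes below 0, with a median of -0.90, and 6 were lower and 0 higher at an unadjusted limma p under 0.05. Cd74, the invariant chain that guides class II molecules, was the 1 that fell, with 523.6 and 425.2 on fish oil, against 929.6 and 1274.7 on chow (log2 fold change -1.20, SE 0.19, limma adjusted p = 0.045). RT1-Da, a class II alpha chain, had 408.9 and 297.1 with fish oil, against 666.1 and 1015.0 with chow (-1.23, limma adjusted p = 0.0628). RT1-Db1, a beta chain, had 101.8 and 109.6 with fish oil, against 148.7 and 231.6 with chow (-0.80, limma adjusted p = 0.483). The alpha chain RT1-Ba had 155.0 and 145.9 with fish oil, against 211.3 and 409.5 with chow (-0.95, limma adjusted p = 0.623). RT1-Bb, its beta chain, had 118.5 and 42.1 with fish oil, against 258.2 and 355.3 with chow (-2.05, limma adjusted p = 0.655). Chow array 2 was the higher chow array in all 5, and without it the list's median was -0.50. With the mean of all probe sets of a gene in place of the brightest, the median was -0.38. Ciita, the master regulator of class II transcription, read 42.2 and 30.1 with fish oil, against 51.9 and 43.4 with chow, and did not pass (-0.38, limma adjusted p = 0.893).

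Class II promoters are known to share a module that ends in a CCAAT box, the Y box. The form CTGATTGG was in 4 of 7 class II promoters in the table, and also in 5 of 15 promoters of cholesterol synthesis, those of Fdps, Idi1, Lss, Mvk and Sc5d, against 3.5% of all promoters. The 4 class II stretches are shown with that of Idi1 for comparison, capitals marking the match. RT1-Da lies at chr20:4515333-4515400 (plus strand), RT1-Db1 at chr20:4560208-4560275 (minus), RT1-Ba at chr20:4576981-4577048 (plus), RT1-Bb at chr20:4604145-4604212 (minus) and Idi1 at chr17:66547556-66547623 (minus).
RT1-Da: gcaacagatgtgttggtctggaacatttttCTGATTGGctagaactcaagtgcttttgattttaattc
RT1-Db1: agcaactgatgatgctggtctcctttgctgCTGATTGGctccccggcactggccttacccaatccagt
RT1-Ba: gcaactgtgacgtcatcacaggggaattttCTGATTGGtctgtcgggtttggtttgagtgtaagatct
RT1-Bb: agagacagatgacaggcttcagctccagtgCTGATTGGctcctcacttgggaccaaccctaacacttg
Idi1: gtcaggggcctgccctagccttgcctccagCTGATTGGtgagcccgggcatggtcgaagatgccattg

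Markers of macrophages and lymphocytes lay mostly below 0, though not all of these cells carry class II molecules. The 10 liver endothelial markers tested had a median of -0.08, with 4 above and 6 below 0. Of 14 Kupffer cell and macrophage markers 12 lay below 0 (median -0.42, and -0.21 without fish oil array 1), and their summed signal was 5170 and 5823 with fish oil, against 6580 and 6825 with chow. The 8 lymphocyte markers tested, of 18 listed, had a median of -0.48, which was 0.02 without fish oil array 1, and summed to 218 and 224 with fish oil, against 286 and 319 with chow. Cd5l, a macrophage protein, had 511.8 and 457.5 with fish oil, against 709.0 and 845.4 with chow (-0.67, limma adjusted p = 0.25). In whole liver, fewer cells of a type and less RNA per cell cannot be told apart, and the part of these markers in the class II result was not tested.

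Il1r1, the signalling receptor for interleukin-1, fell on 1 of 3 probe sets, with 264.7 and 264.3 on fish oil, against 586.5 and 647.8 on chow (-1.21, limma adjusted p = 0.019). Its list of 19 endotoxin and interleukin-1 sensing genes had 11 above 0 and a median of 0.18 (0.04 without fish oil array 1), with 0 higher and 4 lower at an unadjusted limma p under 0.05. The interferon list had 20 of 24 genes below 0 and a median of -0.25, with 1 higher and 3 lower at an unadjusted limma p under 0.05. That median was 0.16 without chow array 1 and -0.58 without chow array 2. Psmb8, a subunit of the immunoproteasome, had 235.6 and 225.5 with fish oil, against 429.6 and 786.7 with chow (-1.32, limma adjusted p = 0.181). Ifit2 was the 1 higher, with 267.6 and 285.7 on fish oil, against 156.5 and 130.2 on chow (0.94, limma adjusted p = 0.345). Acute phase proteins had 15 of 22 genes above 0 and a median of 0.06 (0.03 without fish oil array 2), with 2 higher and 1 lower at that unadjusted threshold. Slpi, a secreted inhibitor of leukocyte proteases, had 58.3 and 80.8 with fish oil, against 6.5 and 2.6 with chow, both below the background bound, so it was at least 5.36-fold higher without passing (limma adjusted p = 0.142). Orm1, an acute phase glycoprotein, had 2903.6 and 3416.3 with fish oil, against 6111.9 and 7464.8 with chow (-1.10, limma adjusted p = 0.201).

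The 21 genes of transamination and deamination, which take nitrogen from amino acids, had 9 members above and 12 below 0. Gpt, alanine aminotransferase, fell, with 990.0 and 689.6 on fish oil, against 2003.5 and 1957.9 on chow (-1.26, SE 0.19, limma adjusted p = 0.032). Aspg, an asparaginase, fell, with 172.3 and 132.0 on fish oil, against 426.9 and 357.6 on chow (-1.36, limma adjusted p = 0.0339). These were the 2 of the list past the threshold, and 8 were lower and 1 higher at an unadjusted limma p under 0.05. The list's median was -0.12, and -0.51 without fish oil array 2. Got1, aspartate aminotransferase, had 572.5 and 567.1 with fish oil, against 1429.3 and 1287.7 with chow (-1.25, limma adjusted p = 0.0743). Sds, serine dehydratase, had 129.6 and 199.7 with fish oil, against 693.9 and 875.7 with chow (-2.25, limma adjusted p = 0.122). Agxt, which transaminates glyoxylate, had 626.6 and 569.7 with fish oil, against 1026.2 and 1262.3 with chow (-0.93, limma adjusted p = 0.0551). In each of these 5 genes both fish oil arrays lay below both chow arrays. For Got1, Sds and Agxt, which did not pass, a lack of overlap was a condition of the naming rule.

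The urea cycle and glutamine list had 11 of 13 genes below 0 and a median of -0.32 (-0.20 without fish oil array 1), with 6 lower and 1 higher at an unadjusted limma p under 0.05 and 0 past the adjusted threshold. Gls2, the liver glutaminase, had 959.9 and 1122.4 with fish oil, against 2041.8 and 2150.7 with chow (-1.01, limma adjusted p = 0.0749). Slc25a15, the mitochondrial ornithine carrier, had 1084.8 and 995.5 with fish oil, against 1538.0 and 1683.3 with chow (-0.63, limma adjusted p = 0.22). Methionine, choline and one-carbon genes had 19 of 25 below 0 and a median of -0.25 (-0.11 without fish oil array 1). Dmgdh, dimethylglycine dehydrogenase of choline breakdown, was the 1 that fell, with 625.5 and 794.8 on fish oil, against 1311.4 and 1627.9 on chow (-1.05, limma adjusted p = 0.032). Gnmt, a glycine methyltransferase, had 2631.6 and 2953.8 with fish oil, against 4038.3 and 5705.1 with chow (-0.78, limma adjusted p = 0.142). Tryptophan, tyrosine and lysine breakdown had 5 of 15 genes above 0 and a median of -0.04 (0.06 without fish oil array 1), with 2 higher and 3 lower at an unadjusted limma p under 0.05. Aass, which starts lysine breakdown, had 1678.8 and 2275.3 with fish oil, against 3361.0 and 3356.1 with chow (-0.78, limma adjusted p = 0.0874). Acmsd, a branch-point enzyme of tryptophan breakdown, had 57.3 and 87.5 with fish oil, against 251.5 and 280.2 with chow (-1.86, limma adjusted p = 0.0999). Gcdh, a later enzyme of lysine and tryptophan breakdown, had 2866.7 and 2761.8 with fish oil, against 1983.8 and 1998.7 with chow (0.50, limma adjusted p = 0.355). The diets did not overlap in Aass, Acmsd or Gcdh, which was a condition of the naming rule, and the direction was not the same in all 3.

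Branched-chain amino acid breakdown had 15 of 21 genes above 0 and a median of 0.09 (-0.05 to 0.27 with 1 of the 4 arrays left out), with 4 higher and 0 lower at an unadjusted limma p under 0.05. Bckdha, a subunit of the branched-chain keto acid dehydrogenase, had 498.7 and 588.9 with fish oil, against 303.0 and 352.0 with chow (0.73, limma adjusted p = 0.181). Some of the lower genes are known to be most active near the portal vein. Of 14 periportal genes, listed with earlier results known, 12 lay below 0 (median -0.41), with 8 lower and 1 higher at an unadjusted limma p under 0.05. Apoa4, described above, was the lowest of them at -2.58, so this list is not independent of the genes already given. Of 12 pericentral genes 11 lay above 0 (median 0.21, and 0.12 without fish oil array 1). Cdh1, E-cadherin, a periportal adhesion protein, had 437.0 and 246.1 with fish oil, against 623.8 and 720.9 with chow (-1.02, limma adjusted p = 0.156).

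**Figure D4:**
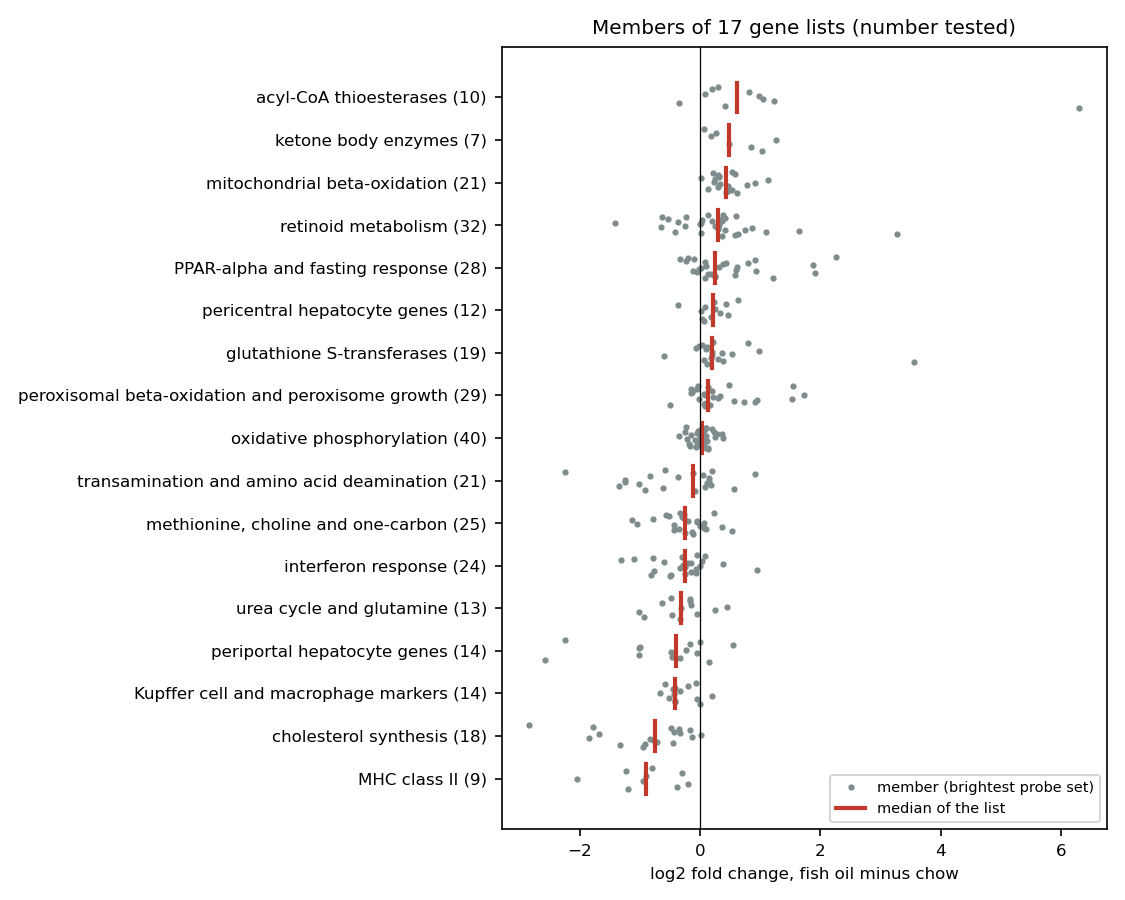
Log2 fold change (fish oil minus chow, x axis) of each tested member of 17 gene lists, 1 point per gene on its brightest probe set, with the median of each list as a red bar and the number tested in brackets. Mitochondrial beta-oxidation lies wholly above 0 and MHC class II wholly below, while oxidative phosphorylation is centred near 0.

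Differences in genes that make glucose and glycogen were small, between -0.45 and 0.47. In gluconeogenesis and glycogen 14 genes had a median of -0.11 (0.03 without chow array 2) and 0 passed, and Pck1, the control step of gluconeogenesis, had 5963.9 and 6605.7 with fish oil, against 7190.7 and 6897.3 with chow (-0.17, limma adjusted p = 0.878). Igf1, the growth factor made under growth hormone, had 5175.0 and 4922.1 with fish oil, against 5782.7 and 5936.9 with chow on its brightest probe set (-0.22, limma adjusted p = 0.762). Other Igf1 probe sets lay lower, at -0.57 and -0.42, and did not pass (limma adjusted p = 0.122 and 0.553). Of 15 circadian clock genes 0 were higher or lower at an unadjusted limma p under 0.05. Drug-metabolising P450s had a median of 0.05 over 31 genes (-0.03 without fish oil array 1), with 3 higher and 6 lower at that threshold. Cyp2d4 fell on 1 of 2 probe sets, with 135.1 and 161.4 on fish oil, against 342.9 and 348.4 on chow (-1.21, limma adjusted p = 0.032). Cyp3a9 had 1168.8 and 918.2 with fish oil, against 2454.3 and 2309.2 with chow (-1.20, limma adjusted p = 0.153).

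The 4 genes past the threshold that are not yet described differ in their known roles. Smim1, a membrane protein of red cells, had 3.5 and 4.7 with fish oil, both below the background bound, against 50.2 and 141.7 with chow, at least 6.59-fold lower (limma adjusted p = 0.0279). The 8 erythroid and platelet markers tested, Smim1 among them, had a median of -0.44 (-0.22 without fish oil array 1, -0.77 without fish oil array 2) and summed to 5202 and 6917 with fish oil, against 7713 and 9238 with chow, and their part in that result was not tested. Ptprs, a receptor phosphatase, fell on 1 of 4 probe sets, with 44.4 and 61.4 on fish oil, against 127.0 and 158.4 on chow (-1.39, limma adjusted p = 0.0453). Pakap fell on 1 of 3 probe sets, with 160.0 and 151.1 on fish oil, against 392.8 and 305.7 on chow (-1.14, limma adjusted p = 0.0403). Prps2, which makes the ribose donor for nucleotides, had 62.6 and 76.9 with fish oil, against 9.2 and 6.7 with chow, at least 5.42-fold higher on 1 of 3 probe sets (limma adjusted p = 0.0497). Its means were 37.55, 49.85 and 47.85 with lard, olive oil and coconut fat, also above chow. Apart from arrays left out, its call held under 1 of 7 alternative settings.

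Whether the fish oil effect differs from that of the other fats was tested by fish oil minus the average over the lard, olive oil and coconut fat diets, since chow drops out of that difference. Over all probe sets 79 passed, which is 0.424%. Acot1 averaged 667 with fish oil, against 24.0, 17.6 and 21.9 with lard, olive oil and coconut fat (log2 difference 4.62, limma adjusted p = 0.00246). For Hdc the difference was 3.72 (limma adjusted p = 0.000556), for Ehhadh 1.48 (limma adjusted p = 0.000821) and for Apoa4 -2.63 (limma adjusted p = 9.18e-05). In these 4 genes fish oil stood apart from every other diet. Tm7sf2, Adh1c, Cyp2d4, Pakap, Cd74 and Prps2 passed against chow but not here (limma adjusted p between 0.070 and 0.52). Their lard, olive oil and coconut fat means all lay between those of fish oil and chow. Tm7sf2 averaged 146 with fish oil, against 519, 480 and 456 with lard, olive oil and coconut fat and 1086 with chow. Amino acid genes were mixed. Aspg (-1.23, limma adjusted p = 0.0117) and Dmgdh (-0.72, limma adjusted p = 0.0433) were lower with fish oil than with the other fats, and 3 others did not pass. Got1 averaged 570 with fish oil, against 371, 483 and 461 with lard, olive oil and coconut fat (0.41, limma adjusted p = 0.42). Sds averaged 165 with fish oil, against 60.8, 38.2 and 218 with lard, olive oil and coconut fat (1.08, limma adjusted p = 0.29). Gpt averaged 840 with fish oil, against 830, 403 and 1326 with lard, olive oil and coconut fat (0.12, limma adjusted p = 0.84), so that difference averages unlike diets. In Got1 and Sds all high-fat means were below the chow means of 1360 and 785, and a p that misses the threshold does not show that the fats act alike.

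**Figure D5:**
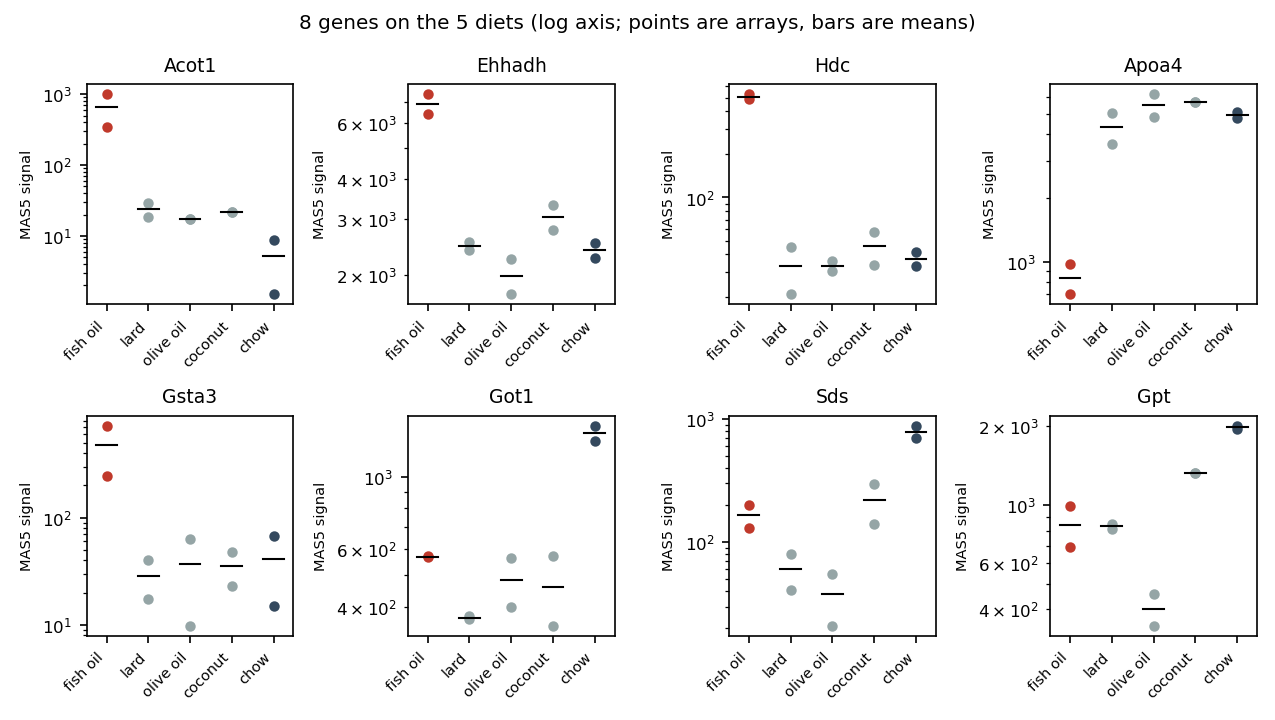
MAS5 signal (log axes, each panel with its own range) of 8 genes on the 5 diets, with fish oil in red, lard, olive oil and coconut fat in grey and chow in dark; points are arrays and bars the means of 2. In Acot1, Ehhadh, Hdc, Apoa4 and Gsta3 the fish oil arrays stand apart from the rest, and in Got1, Sds and Gpt the chow arrays do.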

How the data were processed

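Liver RNA was labelled with biotin and hybridised to Affymetrix Rat 230 2.0 arrays, 1 per sample. The deposited values are linear signal intensity that the authors obtained with MAS5, per the submitters' processing notes; its version, the scaling and detection calls are not given in the sources used here. The table had 31099 probe sets, less 57 controls. Values were turned into log2(signal + 3.1), and the dimmest 40% (12417, a mean signal under 17.8) were left out, which kept 18625. The platform annotation gave 1 symbol for 20826 probe sets, several for 436 and none for 9780. With limma 3.58.1 (R 4.3.3) a model with a mean for each diet and an intensity trend was fitted to the 10 arrays (5 residual and 5.96 prior degrees of freedom), with Benjamini-Hochberg adjustment at 0.05. The number of arrays limits the precision.

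Members and gene lists were chosen with earlier results of these data known. Of 966 listed names 758 were tested, 8 on the array through an older symbol; the match of Ddx58 was dropped because it pointed to another gene. Each gene in a list is its brightest probe set. Named were genes past the threshold, per list up to 4 more with the smallest p among those whose arrays did not overlap, all members of lists of 12 or fewer, and a panel of 20; not every one is printed. Lists got no test. The 9 promoter patterns were chosen after the expression values were seen, and Fdps, Lss, Mvk, Sc5d, Gsta1 and Gstz1 are named for their promoters alone. The fit was tested on simulated data with normal noise of the fit's own variances, which checks the computation and not the choice of model. Alternatives changed the scaling (quantile, or equal 75th percentiles), the offset (25th percentile), the dim filter (none, or 60%), the trend (none), the arrays fitted (only the diets compared, or each array left out) and added a replicate block.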

Additional observations from a re-analysis of the deposited data

Results flagged for a closer look

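For 21 of the 97 genes in the text, fish oil minus chow differed from the other 3 high-fat diets minus chow, by limma's test of fish oil minus the mean of those diets (adjusted p under 0.05 over all probe sets). Over all probe sets 0.424% passed that test. Most of the 97 were named for a gap between fish oil and chow. Both tests use the same fish oil arrays, so a higher share among these genes is no separate result. Higher with fish oil, on the log2 scale, were Acot1 (4.62), Gsta3 (3.73), Hdc (3.72), Mt2A (2.68), Ugt2b1 (2.54), Aldh1a1 (1.92), Ehhadh (1.48), Gstp1 (1.36), Acot2 (1.23), Pex11a (1.12) and Dhrs4 (0.78). Lower with fish oil were Cyp4a8 (-4.00), Smim1 (-3.51), Apoa4 (-2.63), Ptprs (-1.73), Inhba (-1.58), Psmb8 (-1.40), Plin3 (-1.35), Aspg (-1.23), Il1r1 (-0.87) and Dmgdh (-0.72). The fish oil values of Smim1, 3.5 and 4.7, were below the background bound, so its fitted difference gives neither a size nor a rank. Gsta3, Gstp1, Ugt2b1, Mt2A, Dhrs4, Plin3, Psmb8 and Inhba passed here and not against chow. Inhba, an activin subunit, had 218.3 and 236.8 with fish oil, against means of 697, 636 and 739 with lard, olive oil and coconut fat and 388.8 and 456.6 with chow.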

How the results depend on the processing

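The 29 probe sets past the threshold for fish oil against chow became 7 without the intensity trend (4 higher, 3 lower), 20 with a replicate block (9 lower), 21 when only the diets compared were fitted (9 lower) and between 22 and 33 under the other 5 settings. With each array left out in turn they ranged from 5 to 41, the higher ones from 4 to 24 and the lower ones from 1 to 20. The 79 for fish oil against the other 3 high-fat diets became 6 without the trend, 120 with only the diets compared and 60 with the replicate block, and 31 to 113 with each array left out. The cause was not tested. The 20 named genes kept their direction under all settings, but 16 lost their call without the trend, 12 with only the diets compared and 5 (Gpt, Cyp2d4, Pakap, Cd74 and Prps2) with the block. The labels share numbers 1 and 2 across diets without saying that these pair rats, and same-numbered fish oil and chow arrays deviated together at a correlation of 0.076, so the block shows only a shared number. Of 97 genes in the text, 11 changed sign when an array was left out, and 0 of these had passed. Their ranges over the arrays left out were -0.97 to 0.27 for Acot13, -0.15 to 0.73 for Them4, -0.02 to 0.43 for Acot9, -0.07 to 0.24 for Acot7, -0.03 to 0.96 for Cpt1a, -0.05 to 1.97 for Srebf1, -2.46 to 1.13 for Fasn, -0.71 to 2.64 for Scd, -0.35 to 0.36 for Cyp7a1, -0.57 to 0.15 for Uroc1 and -0.02 to 0.16 for Ftcd. List medians turned likewise for de novo lipogenesis (-0.45 to 0.65, and -0.01 with the dimmest 60% left out), interferon response (-0.58 to 0.16), lymphocyte markers (-0.52 to 0.02), bile acids (-0.23 to 0.09), branched-chain breakdown (-0.05 to 0.27), oxidative phosphorylation (-0.11 to 0.16), gluconeogenesis (-0.27 to 0.03), tryptophan, tyrosine and lysine breakdown (-0.18 to 0.06), glucuronidation and sulfation (-0.02 to 0.11), apolipoproteins (-0.01 to 0.05) and drug-metabolising P450s (-0.03 to 0.12). Outside the threshold, 21 genes passed under at least 1 alternative, Acat1, Cd36, Mt2A and Got1 among them. Without detection calls, signals near the background bound of 12.8 have no order.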
